A study of Mus musculus with 29 samples.

Results

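The genes of glycolysis and of the response to hypoxia-inducible factor (HIF) were followed through adipogenesis of 3T3-L1 cells exposed to C70 (KDM5-C70), an inhibitor of the KDM5 histone demethylases. The set was a fixed list of 34 gene symbols, matched to the Ensembl identifiers of the deposited counts, and 33 of them were found among the 11959 genes of the table. Aldoc was not analysed here. By role, 2 genes encode transporters, 16 encode glycolytic enzymes or lactate dehydrogenase, 2 regulate flux, 5 encode HIF subunits or the prolyl hydroxylases that sense oxygen, and 8 are established targets of HIF. 3T3-L1 is a mouse preadipocyte line that forms fat cells in culture. Confluent cells received 10 µM C70, or vehicle (DMSO) alone, between day -2 and day 0. Both arms were then moved to differentiation medium until day 2 and to adipocyte medium afterwards, so the later samples had spent 1, 2 or 7 days after treatment. RNA was collected at days 0, 1, 2 and 7 from 29 samples in 8 groups. Vehicle groups held 3 samples at days 0, 1 and 2 and 4 samples at day 7, and each C70 group held 4 samples. The labels do not say whether replicates were separate cultures, so p-values measure only the spread between these samples. Every group comes from the same cell line.

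Glycolysis converts glucose to pyruvate in the cytosol, and lactate dehydrogenase reduces pyruvate to lactate. HIF is a pair of proteins, an oxygen-regulated alpha subunit such as that from Hif1a and a constant partner from Arnt, and it binds the core sequences ACGTG and GCGTG near genes for glycolysis, glucose uptake, vessel growth and mitophagy. Under normal oxygen the prolyl hydroxylases encoded by Egln1, Egln2 and Egln3 mark the alpha subunit for destruction, and they need 2-oxoglutarate to do so. KDM5 enzymes use the same co-substrate, and C70 competes with it, which is the reason these genes bear on the selectivity of the compound. In fat cells, glycolysis also supplies glycerol phosphate and carbon for lipid synthesis.

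Between 16320275 and 24037170 counts were assigned in each sample, and the smallest count of a member in any sample was 15. Levels are given as CPM, counts scaled to a common library total by the TMM method of edgeR. All samples were labelled adipocytes, but at day 0 Adipoq, the gene of the fat cell hormone adiponectin, had a mean of only 0.283 CPM in vehicle and 0.341 CPM in C70 samples. The summed CPM of 7 of 7 adipocyte markers was 1287 to 1409 in vehicle and 1469 to 1522 in C70 samples before induction. At day 1 it was 4886 to 5097 in vehicle and 3068 to 3198 in C70 samples, at day 2 18500 to 19384 and 10550 to 11617, and by day 7 22130 to 26527 and 24046 to 26470. These sums did not overlap at day 0, when they were slightly higher in C70 samples and consisted mainly of Lpl (lipoprotein lipase). Taken singly at day 0, Lpl and Cebpa (11.1 to 13.5 CPM in vehicle and 14.6 to 17.8 CPM in C70 samples) were higher in every C70 sample. Fabp4 and Pparg were lower in every C70 sample, and Adipoq, Plin1 and Cfd overlapped at low levels. The sums did not overlap at days 1 and 2 either, when they were lower in C70 samples. They overlapped at day 7, although 3 of the 7 genes taken singly did not: Adipoq (1225 to 1620 CPM in vehicle and 1636 to 1793 CPM in C70 samples), Plin1 and Lpl were each higher in every C70 sample. The summed CPM of 6 of 6 preadipocyte markers was 20371 to 21038 in vehicle and 19912 to 21879 in C70 samples before induction. It was 8160 to 9064 and 8952 to 9882 at day 1, 3430 to 3505 and 5821 to 6191 by day 2, and 2205 to 2885 and 4716 to 5444 in the last samples, so that these sums overlapped at days 0 and 1 and were higher in C70 samples at days 2 and 7. Most of each sum came from Col1a1 and Col3a1. Taken singly, Dlk1 (2470 to 2666 CPM in vehicle and 2746 to 3012 CPM in C70 samples) and Thy1 (237 to 283 and 475 to 487 CPM) were already higher in every C70 sample at day 0, and they were so again at day 1, together with Pdgfrb and Col3a1, while Col1a1 was lower. The part of these marker differences in the values below was not tested, and fewer cells of a type cannot be told apart from less RNA per cell in bulk samples. Endothelial markers (0 of 3 in the table) were not analysed here, and of the macrophage and muscle lists only Cd68 (1 of 4) and Des (1 of 3) could be followed. Cd68 was at 1.13 to 1.67 CPM in vehicle and 18.7 to 19.8 CPM in C70 samples at day 0, at 1.74 to 2.01 and 13.6 to 15.1 CPM at day 1, at 1.33 to 1.75 and 6.35 to 6.94 CPM at day 2, and at 1.92 to 2.69 and 1.06 to 2.79 CPM at day 7. One library stood apart from its group, vehicle day 7 replicate 1. Its counts differed from those of the other 3 with a chi-square per degree of freedom of 39.8 to 46.7, against 2.65 to 13.9 for all other pairs of replicates, and enzymes made up 1.78% of its counts against 1.48% to 1.65%. Without it 9 members rather than 11 were called lower after C70 at day 7, since the calls of Ldha and Ankrd37 were lost, and the enzyme median of that day was -0.23 instead of -0.31 on the log2 scale.

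Promoters were examined because many members moved together. RefSeq (GRCm38.p6) gave 47 start sites for 31 of the members, each with a window from 250 bases before to 50 bases after the start. Bnip3l and Ndrg1 had no entry. The windows were searched on both strands for ACGTG and GCGTG, the forms of the HIF core, and at least 1 match was found in 38 of 47 windows (80.9%), against 14380 of 32851 promoters of this length in RefSeq (43.8%). Matches lay at one or more starts of 29 of the 31 genes, and in no window of Gpi1 or Tpi1. The palindrome CACGTG, which holds ACGTG on each strand and so counts as a pair of matches, was in 12.8% of the members' windows and 7.15% of all. Windows of the same gene can overlap, as for Eno1 and Aldoa, so that 1 site can count in more than 1 window. The RefSeq promoters were not matched to those of the members for base composition. A match describes the sequence only, and binding was not measured. The windows below are shown for members on which the results turn, 3 that were lower and 2 that were higher in C70 samples at day 2. Each is printed 5′ to 3′ on the strand of the gene, with matches in capitals.
Ldha, lactate dehydrogenase A, chr7:46845554-46845853, + strand: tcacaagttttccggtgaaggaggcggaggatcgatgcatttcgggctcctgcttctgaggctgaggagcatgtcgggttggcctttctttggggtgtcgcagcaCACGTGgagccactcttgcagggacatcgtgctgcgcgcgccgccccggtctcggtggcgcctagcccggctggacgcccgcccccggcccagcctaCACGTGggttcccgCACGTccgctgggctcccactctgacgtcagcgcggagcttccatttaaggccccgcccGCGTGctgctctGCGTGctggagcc
Pgk1, phosphoglycerate kinase, chrX:106186850-106187149, + strand: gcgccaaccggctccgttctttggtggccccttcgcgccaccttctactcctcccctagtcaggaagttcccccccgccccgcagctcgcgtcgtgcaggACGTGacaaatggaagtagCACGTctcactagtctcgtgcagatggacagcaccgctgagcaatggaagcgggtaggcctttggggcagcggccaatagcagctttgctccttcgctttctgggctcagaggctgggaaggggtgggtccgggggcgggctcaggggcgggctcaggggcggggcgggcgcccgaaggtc
Bnip3, a mitophagy receptor, chr7:138909457-138909756, - strand: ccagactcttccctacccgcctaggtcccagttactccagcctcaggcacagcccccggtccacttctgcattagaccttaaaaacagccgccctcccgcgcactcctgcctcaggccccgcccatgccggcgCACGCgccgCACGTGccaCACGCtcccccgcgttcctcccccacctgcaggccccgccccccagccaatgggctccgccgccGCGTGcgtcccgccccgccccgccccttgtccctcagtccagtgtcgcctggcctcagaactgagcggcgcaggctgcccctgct
Slc16a3, the lactate exporter MCT4, chr11:120948817-120949116, + strand: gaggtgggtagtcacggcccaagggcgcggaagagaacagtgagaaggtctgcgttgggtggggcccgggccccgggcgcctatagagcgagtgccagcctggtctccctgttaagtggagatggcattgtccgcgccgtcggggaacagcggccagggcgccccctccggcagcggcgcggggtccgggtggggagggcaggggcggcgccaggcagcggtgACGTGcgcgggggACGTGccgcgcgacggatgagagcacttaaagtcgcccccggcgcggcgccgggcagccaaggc
Eno3, the muscle form of enolase, chr11:70656926-70657225, + strand: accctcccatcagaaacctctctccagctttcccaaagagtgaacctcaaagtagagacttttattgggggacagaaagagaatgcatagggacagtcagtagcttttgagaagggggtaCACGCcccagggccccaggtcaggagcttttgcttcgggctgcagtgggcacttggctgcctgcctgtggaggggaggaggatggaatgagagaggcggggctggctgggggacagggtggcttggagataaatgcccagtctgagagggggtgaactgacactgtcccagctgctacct
The Ldha window shown held 7 matches with CACGTG in it, that of Bnip3 5 matches with CACGTG, those of Pgk1 and Slc16a3 2 matches each, and that of Eno3 1 match. Another annotated start of Ldha, with its window at chr7:46846832-46847131, held 2 matches and no CACGTG. Among the windows shown, those of genes that fell and of genes that rose after C70 both carried the core. Since 29 of the 31 genes had a match, almost any choice of genes would have shown this, and no conclusion is drawn from it.

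In vehicle cells many members rose during differentiation. A gene was called when its adjusted p in edgeR's quasi-likelihood test was under 0.05 and its log2 fold change was beyond 0.32 in either direction, with Benjamini-Hochberg adjustment over all 11959 genes of each comparison. From day 0 to day 1, 24 members were called against 54.1% of all genes, and 21 of the 24 were higher, against 26.2% of all genes called higher. From day 1 to day 2 there were 22 called against 44.3%, 15 of them higher against 22.3%. In the last step, to day 7, there were 28 called against 53.3%, 24 of them higher against 26.6%. The steps share samples with each other and with the C70 comparisons, and are therefore given side by side. Among the 16 enzyme genes the median log2 fold change of the 3 steps was 0.47, 0.28 and 0.90.

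Climbs in vehicle cells were measured as folds from the day 0 mean to the mean of each gene's highest day. The largest were those of Bnip3 and Egln3 of the HIF arm, followed by Pfkfb3 and Hk2 of glycolysis. Bnip3, whose product draws mitochondria into autophagosomes, had 28.4, 33.5 and 31.7 CPM before induction. It had 81.6, 88.7 and 72.1 CPM at day 1, 188, 199.8 and 189 CPM at day 2 and 941, 852, 832 and 872 CPM at day 7. These groups did not overlap, and the mean at day 7 was 28.02 times that at day 0. Egln3, the most inducible of the prolyl hydroxylases, went from 13.4, 17.6 and 14.2 CPM to 283, 238, 239 and 262 CPM between day 0 and day 7, a 16.99-fold climb of the mean. Hk2, the insulin-responsive hexokinase, rose from 96.5, 97.7 and 103 CPM at day 0 to 603, 781, 744 and 714 CPM at day 7, or 7.18-fold. Every step of both genes was called higher, although the first step of Hk2 was at 0.26, and not called, without vehicle day 1 replicate 2. Hif1a itself went the other way, from 293, 299 and 312 CPM at day 0 to 204, 197 and 213 CPM at day 2 and 112, 149, 152 and 138 CPM at day 7, and its last 2 steps were called lower. Hk1, the constitutive hexokinase, went from 169 ± 9.80 CPM (SD, n = 3) at day 0 to 43.2 ± 5.30 CPM (SD, n = 4) at day 7, and its first 2 steps were called lower. Pfkfb3, which makes the activator of phosphofructokinase, peaked at day 2, where its vehicle samples had 309, 292 and 302 CPM against 19.3, 22.4 and 20.4 CPM at day 0, 14.5-fold in the mean. Ddit4, a stress-induced inhibitor of mTORC1, peaked at day 1, when it had 219, 229.9 and 212 CPM against 41.0, 49.4 and 41.5 CPM before induction.

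Levels of different genes were compared per length. The length was that of all annotated exons of a gene together. Which transcripts were expressed was not measured, so the ranks here and the shares below depend on that length. As CPM per kilobase of annotated exon, Aldoa (aldolase A) was the highest member in vehicle cells, with a level of 309.6 ± 24.9 (SD, n = 3) at day 0 and 1687 ± 181 (SD, n = 4) at day 7. Ldha had 121 ± 17.7 and 699 ± 89.4 on the same scale, Bnip3 13.8 ± 1.14 and 386 ± 20.9, and Slc16a3 only 0.288 ± 0.0635 and 0.411 ± 0.0237. Bnip3 was thus lower than Ldha at both ends of the course on this scale. Before division by length, Pkm had a mean of 927 CPM and Aldoa 901 CPM in vehicle samples at day 0. Sequence shared with other genes, given below for single members, makes such comparisons less certain.

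Members called after C70 were fewest at days 0 and 1 and most numerous at day 2. At day 0, 7 members were called against 8.97% of all genes. All were higher in C70 samples, with 7 higher and 0 lower against 5.89% and 3.09%. In edgeR 2 members were lower at an unadjusted p under 0.05 on that day, and DESeq2 and limma also called 0 lower. At day 1, 7 were called against 21.4%, of which 5 were higher and 2 lower against 13.6% and 7.80%. The balance was the opposite at day 2, when 22 were called against 30.5%, with 6 higher and 16 lower against 16.9% and 13.6%. At day 7, 13 were called against 19.1%, with 2 higher and 11 lower against 14.3% and 4.85%. As shares of the 33 members the calls were 21.2%, 21.2%, 66.7% and 39.4% on the 4 days, so that of day 1 was close to the share of all genes. In all, 26 members were called on at least 1 day, 3 of them (Pgk1, Ndrg1 and Ankrd37) higher on one day and lower on another. Of all genes, 44.5% were called on at least 1 day, 2.83% in both directions and 2.48% on all 4 days. Eno3, Ndrg1 and Ankrd37 were called on all 4 days, and of these only Eno3 kept 1 direction. The calls of Ankrd37 at days 2 and 7 and of Pgk1 at day 0 were lost when certain single samples were left out, as given below. The 7 members never called were Pfkm, Pkm, Arnt, Egln2, Vegfa, Bnip3l and Higd1a.

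**Figure D1:**
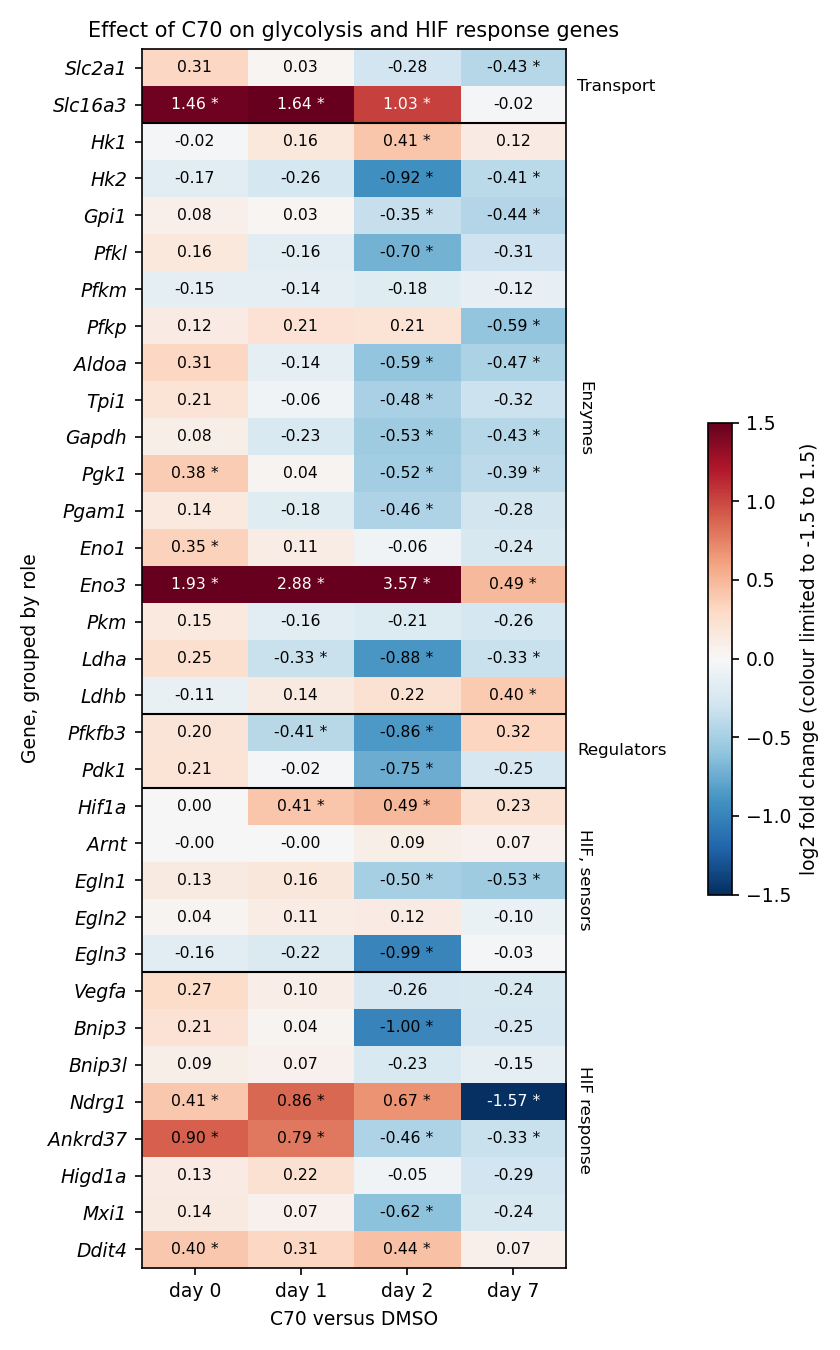
Log2 fold change of C70 against vehicle (DMSO) for each of the 33 genes (rows, grouped by role) at days 0, 1, 2 and 7 (columns). Red is higher and blue lower in C70 samples, the colour is limited to the range printed beside its bar, and an asterisk marks a called gene. The column of day 2 holds 16 called lower values, and Eno3 is called higher in every column.

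The median of the 16 enzyme genes lay above 0 at day 0, near 0 at day 1 and below 0 at days 2 and 7. Their median log2 fold changes after C70 on days 0, 1, 2 and 7 were 0.15, -0.097, -0.41 and -0.31, beside -0.00043, -0.0060, -0.0036 and 0.0038 over all genes. Enzymes called were 3 on day 0, all higher, 1 higher and 1 lower on day 1, 2 higher and 9 lower on day 2, and 2 higher and 7 lower on day 7. As shares of the 16 these were 18.8%, 12.5%, 68.8% and 56.2%, against 8.97%, 21.4%, 30.5% and 19.1% of all genes, so that the share of day 1 was below that of all genes. The 8 HIF targets had medians of 0.24, 0.16, -0.24 and -0.25. Of these targets 3 were called on day 0 and 2 on day 1, all higher, then 2 higher and 3 lower on day 2 and 2 on day 7, both lower, or 37.5%, 25%, 62.5% and 25% of the 8 on the 4 days. The shares of days 1 and 7, from 2 calls each, were near the 21.4% and 19.1% of all genes. On day 2, when 9 enzymes were called lower, the summed adipocyte markers were lower and the preadipocyte markers higher in C70 samples. On day 7, when 7 enzymes were called lower, the preadipocyte markers were higher again, and the adipocyte sums overlapped with 3 of the 7 genes higher. Without vehicle day 1 replicate 2, a sample with high values of many enzymes, the enzyme median of day 1 was -0.00089. That of day 0 was 0.077 without vehicle day 0 replicate 1 and 0.23 without vehicle day 0 replicate 2.

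**Figure D2:**
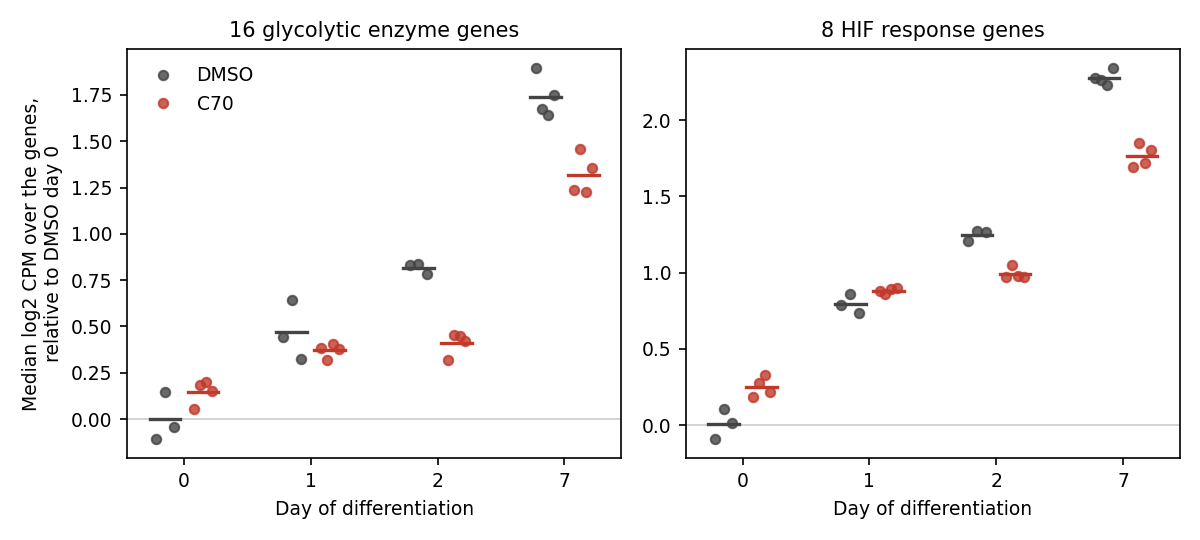
Median log2 CPM over the 16 enzyme genes (left) and the 8 HIF response genes (right) in every sample, each gene relative to its mean in vehicle (DMSO) at day 0, by day. Points are samples and lines are group means, and at day 2 the enzyme medians of C70 samples (0.32 to 0.45) lie below those of vehicle samples (0.78 to 0.83).

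Of the transporters, Slc16a3 was raised at every day up to day 2. This gene encodes the exporter through which glycolytic cells release lactate, and it lies at chr11:120948480-120960868 (GRCm38). At day 0 it had 1.33, 1.92 and 1.35 CPM in vehicle and 3.40, 4.04, 4.37 and 4.80 CPM in C70 samples. The values were 1.37, 1.22 and 1.51 against 4.06, 4.53, 4.51 and 3.99 CPM at day 1, and 0.675, 0.696 and 1.02 against 2.03, 1.69, 1.68 and 1.08 CPM at day 2. In each case every C70 sample exceeded every vehicle sample. The log2 fold changes of these 3 days were 1.46 ± 0.180 (SE, adjusted p = 4.17e-07), 1.64 ± 0.185 (SE, adjusted p = 2.04e-08) and 1.03 ± 0.241 (SE, adjusted p = 0.000659). By day 7 vehicle samples had 2.27, 2.03, 2.30 and 2.14 CPM and C70 samples 2.79, 2.31, 1.61 and 1.90 CPM, which overlapped, with a log2 fold change of -0.02 ± 0.180 (SE, adjusted p = 0.941) whose sign depended on which sample was left out. These are low levels, close to the smallest counts of the set.

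Slc2a1, the glucose transporter of most growing cells, moved far less. It had 109, 104 and 106 CPM in vehicle and 130.2, 131, 126 and 139 CPM in C70 samples at day 0, but 136, 128, 125 and 133 against 86.7, 105, 95.3 and 99.6 CPM at day 7. The order of the arms was thus opposite at the ends of the course. The log2 fold change was 0.31 ± 0.0576 (SE, adjusted p = 0.000215) at day 0, which is under the fold threshold, and -0.43 ± 0.0539 (SE, adjusted p = 1.35e-07) at day 7, which was called.

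At the first step of glycolysis the hexokinase isoforms moved in opposite directions at day 2. Hk2 had 307, 332 and 311 CPM in vehicle and 161, 172, 175 and 162 CPM in C70 samples at day 2, a log2 fold change of -0.92 ± 0.0755 (SE, adjusted p = 1.46e-11). At day 7 the values were 603, 781, 744 and 714 CPM in vehicle and 545, 548, 549 and 504 CPM in C70 samples, with a log2 fold change of -0.41 ± 0.0692 (SE, adjusted p = 2.07e-05). C70 samples were below all vehicle samples at both days. Hk1 was higher at day 2, with 51.6, 50.4 and 52.7 CPM in vehicle and 70.5, 69.7, 68.2 and 66.0 CPM in C70 samples and a log2 fold change of 0.41 ± 0.0670 (SE, adjusted p = 5.64e-06). At day 7 Hk1 had 38.1 to 48.0 CPM in vehicle and 43.7 to 50.2 CPM in C70 samples, which overlapped. Per length, Hk2 made up 89.8% ± 0.552 (SD, n = 3) of Hk1 and Hk2 together in vehicle and 77.7% ± 0.880 (SD, n = 4) in C70 samples at day 2, and 95.9% ± 0.899 and 94.2% ± 0.528 at day 7. The share of Hk2 in C70 cells at day 2 lay between those of vehicle cells at day 1, 64.0% ± 2.77, and day 2.

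Of the enzymes from glucose phosphate to triose phosphate, most were lower at day 2. Aldoa, which splits fructose bisphosphate, had 2481, 2480 and 2468 CPM in vehicle and 1569, 1723, 1684 and 1595 CPM in C70 samples at day 2. Its values at day 7 were 5632, 4560, 4482 and 4974 against 3412, 3850, 3350 and 3555 CPM. The arms did not overlap at either day, and the log2 fold changes were -0.59 ± 0.0668 (SE, adjusted p = 9.9e-09) and -0.47 ± 0.0623 (SE, adjusted p = 3.56e-07). Gpi1 (glucose phosphate isomerase) and Pfkl (the liver form of phosphofructokinase) had log2 fold changes of -0.35 ± 0.0666 (SE, adjusted p = 5.27e-05) and -0.70 ± 0.0877 (SE, adjusted p = 6.28e-08) at day 2, and Tpi1 (triose phosphate isomerase) had -0.48 ± 0.0822 (SE, adjusted p = 1.09e-05). At day 7 Gpi1 was called lower again, at -0.44 ± 0.0617 (SE, adjusted p = 9.71e-07), with 15.8% of its 50-base words shared. Pfkl and Tpi1 at day 7 were -0.31 and -0.32, with adjusted p of 0.00297 and 0.00128, and stayed under the fold threshold.

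The 3 phosphofructokinase genes behaved differently from one another. Pfkp, the platelet form, had 89.6, 90.7 and 89.3 CPM in vehicle and 105, 101, 108 and 101 CPM in C70 samples at day 2, the opposite order to Pfkl, with a log2 fold change of 0.21 ± 0.0559 (SE, adjusted p = 0.00227) that was under the fold threshold. At day 7 it was the most lowered enzyme, with 439, 396, 386 and 413 CPM in vehicle and 263, 283, 273 and 264 CPM in C70 samples and a log2 fold change of -0.59 ± 0.0494 (SE, adjusted p = 4.45e-11). Pfkm, the muscle form, had log2 fold changes between -0.18 and -0.12 on the 4 days and was never called. Per length, Pfkl made up 53.4% ± 1.14 (SD, n = 3) of the 3 genes in vehicle and 43.2% ± 1.51 (SD, n = 4) in C70 samples at day 2.

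Further down the pathway Pgk1, which makes the first ATP, was higher at day 0 and lower at day 2. At day 0 it had 96.8, 132 and 109.9 CPM in vehicle and 130.5, 151, 158 and 147 CPM in C70 samples, with 1 C70 sample below the highest vehicle sample, and a log2 fold change of 0.38 ± 0.0869 (SE, adjusted p = 0.00196). At day 2 the values were 203, 206 and 193 against 131, 135, 148 and 145 CPM, and at day 7 they were 432, 393, 363 and 391 against 291, 331, 279 and 302 CPM, without overlap. The later log2 fold changes were -0.52 ± 0.0850 (SE, adjusted p = 5.43e-06) and -0.39 ± 0.0778 (SE, adjusted p = 0.000155). The call of day 0 was lost without vehicle day 0 replicate 1, when the log2 fold change was 0.28. Of its exon sequence, 53.9% of the 50-base words also occur in other annotated genes, above all in Pgk1-rs7, so its counts are uncertain where reads were split.

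Gapdh, which oxidises glyceraldehyde phosphate and is often used as a reference gene, was itself lower. It had 1357, 1351 and 1334 CPM in vehicle and 871, 974, 958 and 921 CPM in C70 samples at day 2, and 2832, 2198, 2158 and 2422 against 1667, 1991, 1604 and 1892 CPM at day 7. The groups did not overlap, and the log2 fold changes were -0.53 ± 0.0831 (SE, adjusted p = 2.93e-06) and -0.43 ± 0.0774 (SE, adjusted p = 4.94e-05). Pgam1 (phosphoglycerate mutase) was called lower at day 2 alone, at -0.46 ± 0.0644 (SE, adjusted p = 4.32e-07). Pkm (pyruvate kinase) went from 0.15 at day 0 to -0.26 at day 7 and was not called. Gapdh, Pgam1 and Pkm share 25.1%, 36.2% and 25.8% of their 50-base words with pseudogenes or other genes.

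The lactate dehydrogenase genes moved apart. Ldha, which favours lactate formation, had 794, 926 and 733 CPM in vehicle and 669.8, 611, 675 and 643 CPM in C70 samples at day 1. At day 2 it had 1125, 1118 and 1132 against 573, 634, 627 and 618 CPM, and at day 7 it had 2725, 2102, 2094 and 2330 against 1797, 1954, 1719 and 1864 CPM. All C70 samples were below all vehicle samples on these 3 days. Its log2 fold changes were -0.33 ± 0.0820 (SE, adjusted p = 0.00164), -0.88 ± 0.0817 (SE, adjusted p = 2.04e-10) and -0.33 ± 0.0759 (SE, adjusted p = 0.000686). At day 1 the call was lost without vehicle day 1 replicate 2 (-0.23) or C70 day 1 replicate 2 (-0.30), and at day 7 without vehicle day 7 replicate 1 (-0.24) or C70 day 7 replicate 3 (-0.31). Removing the genes of lowest mean level (25%) also moved both just under the fold threshold, to -0.31 on each day. The call of day 2 held in all of these fits. Ldhb, which favours the return of lactate to pyruvate, had 86.0, 72.1, 75.3 and 74.1 CPM in vehicle and 98.3, 106, 103 and 97.3 CPM in C70 samples at day 7, with a log2 fold change of 0.40 ± 0.0507 (SE, adjusted p = 2.09e-07). At day 2 its log2 fold change was 0.22 ± 0.0523 (SE, adjusted p = 0.000640), under the fold threshold. Of its 50-base words, 20.99% occur in other annotated genes. Per length, Ldhb accounted for 23.9% ± 0.338 (SD, n = 3) of Ldha and Ldhb together in vehicle and 40.3% ± 1.19 (SD, n = 4) in C70 samples at day 2.

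Eno3 showed the largest difference of all members. Enolase makes phosphoenolpyruvate, and Eno3 is the form known from muscle. At day 0 it had 21.3, 20.9 and 19.8 CPM in vehicle and 79.1, 80.8, 78.3 and 76.3 CPM in C70 samples. In vehicle it then dropped to 7.39, 6.29 and 7.58 CPM at day 1 and 4.86, 5.32 and 3.94 CPM at day 2, while C70 samples kept 52.4, 51.0, 54.0 and 51.5 CPM and 57.3, 56.6, 55.8 and 56.2 CPM. Relative to day 0, vehicle samples thus fell further than C70 samples, and the fold difference between the arms widened. The log2 fold changes of days 0, 1 and 2 were 1.93 ± 0.0843 (SE, adjusted p = 5.99e-17), 2.88 ± 0.0996 (SE, adjusted p = 5.82e-20) and 3.57 ± 0.106 (SE, adjusted p = 8.12e-22), the last a 11.9-fold difference. At day 7 the values were 16.1, 9.86, 10.3 and 11.4 CPM in vehicle and 16.99, 15.3, 16.8 and 17.6 CPM in C70 samples, which overlapped through 1 vehicle sample, with a log2 fold change of 0.49 ± 0.0947 (SE, adjusted p = 0.000105). The gene lies at chr11:70657202-70662513 (GRCm38) and shares none of its 50-base words with another annotated gene. Des, the only muscle marker of 3 in the table, was at 4.18 to 5.61 CPM in vehicle and 8.69 to 9.998 CPM in C70 samples at day 0. It was at 1.83 to 2.58 and 5.45 to 7.24 CPM at day 1, and at 3.48 to 3.64 and 4.76 to 5.39 CPM at day 2. At day 7 it had risen to 40.6 to 50.9 CPM in vehicle and 35.3 to 43.6 CPM in C70 samples, which overlapped. C70 samples were thus the higher ones up to day 2, as for Eno3, but not at day 7.

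Eno1, the general form of enolase, was higher at day 0, as Eno3 was, but was not called on the later days. It had 204, 264 and 211 CPM in vehicle and 281, 295, 288 and 288 CPM in C70 samples at day 0, with a log2 fold change of 0.35 ± 0.0917 (SE, adjusted p = 0.00677), and -0.06 at day 2. The call of day 0 was lost without vehicle day 0 replicate 1 (0.28) or replicate 3 (0.30), and with quantile normalization (0.32, just under the fold threshold). Of its sequence, 25.99% of the 50-base words occur in other genes, mostly in Eno1b. Per length, Eno3 made up 22.2% ± 2.40 (SD, n = 3) of Eno1 and Eno3 together in vehicle and 45.8% ± 0.620 (SD, n = 4) in C70 samples at day 0. The shares were 6.65% ± 0.908 and 47.2% ± 1.43 at day 2, and 10.5% ± 0.840 and 16.4% ± 1.53 at day 7. They depend on the exon lengths used, 5379 bases for Eno1 and 1739 for Eno3. In CPM, the C70 means at day 2 were 196 for Eno1 and 56.5 for Eno3. Eno2, which was not part of the enolase sums, had 61.4, 67.4 and 70.3 CPM in vehicle and 67.4, 73.0, 74.0 and 76.2 CPM in C70 samples at day 0. It was higher in every C70 sample afterwards, with means of 21.9 and 49.2 CPM at day 1, 14.4 and 26.6 CPM at day 2, and 5.50 and 8.71 CPM at day 7.

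**Figure D3:**
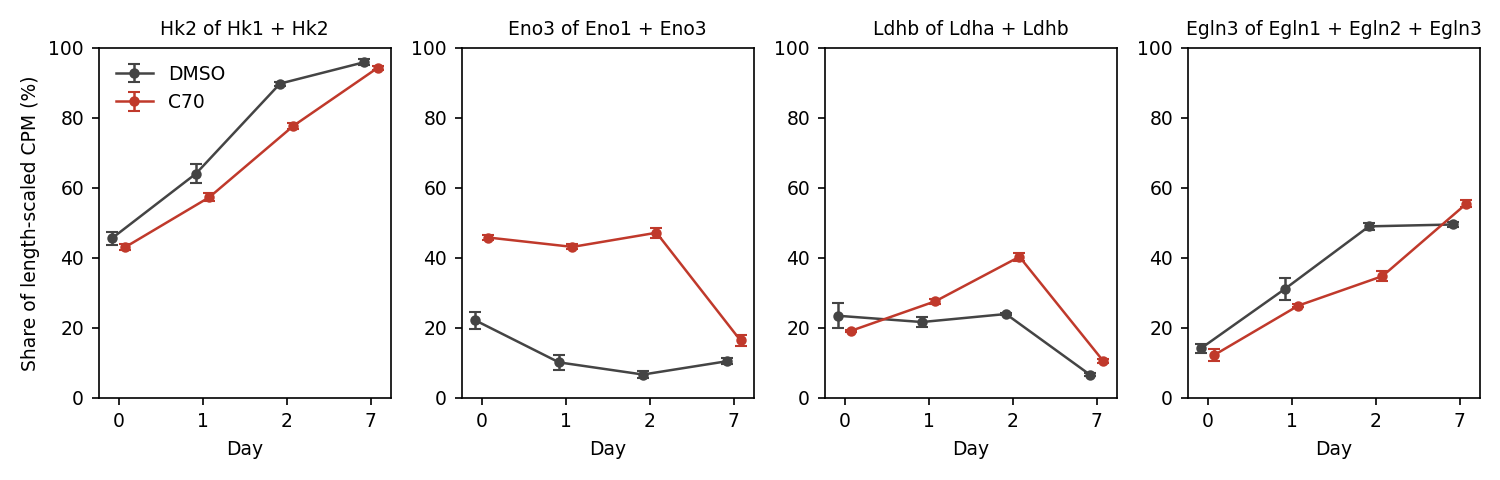
Share of 1 gene in the sum of the genes named above each panel, as percent of their summed CPM per exon length, by day. The enolase panel sums Eno1 and Eno3 and leaves out Eno2. Points are group means of 3 or 4 samples in vehicle (DMSO) or C70, and bars are SD. On this scale Eno3 holds close to equal shares with Eno1 in C70 samples up to day 2 (47.2%) but 6.65% in vehicle samples at that day. The shares depend on the exon lengths used, 5379 bases for Eno1 and 1739 for Eno3. In CPM, the C70 means at day 2 are 196 for Eno1 and 56.5 for Eno3.

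The 2 regulators of flux were both lower at day 2. Pfkfb3 had 50.8, 50.6 and 44.0 CPM in vehicle and 34.3, 36.4, 36.6 and 38.2 CPM in C70 samples at day 1, and 309, 292 and 302 against 159.8, 177, 165 and 164 CPM at day 2. The log2 fold changes were -0.41 ± 0.0708 (SE, adjusted p = 2.13e-05) and -0.86 ± 0.0626 (SE, adjusted p = 1.1e-12). At day 7 the order turned, with 128, 151, 136 and 133 CPM in vehicle and 188, 149, 182 and 167 CPM in C70 samples, although 1 C70 sample was below the highest vehicle sample and the log2 fold change of 0.32 ± 0.0595 (SE, adjusted p = 6.27e-05) stayed just under the fold threshold. Pdk1, the kinase that closes pyruvate dehydrogenase, had 121, 128 and 129.6 CPM in vehicle and 73.3, 77.8, 77.8 and 72.1 CPM in C70 samples at day 2. All C70 samples were lower, with a log2 fold change of -0.75 ± 0.0948 (SE, adjusted p = 8.92e-08).

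Among the HIF subunits and oxygen sensors, Hif1a was the gene that rose. It had 293, 299 and 312 CPM in vehicle and 303, 304, 293 and 305 CPM in C70 samples at day 0, which did not separate. At day 1 the values were 287, 262 and 271 against 387, 356, 344 and 371 CPM, and at day 2 they were 204, 197 and 213 against 314, 301, 263 and 269.7 CPM. All C70 samples were above all vehicle samples on these days, with log2 fold changes of 0.41 ± 0.0697 (SE, adjusted p = 1.72e-05) and 0.49 ± 0.0703 (SE, adjusted p = 8.33e-07). Arnt stayed between -0.0049 and 0.09 on the 4 days, with adjusted p from 0.173 to 0.966. The abundance of the HIF proteins, which is set mainly after transcription, was not measured in these data.

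Egln1, the main hydroxylase of HIF in most cells and itself a HIF target, was lower at days 2 and 7. Its samples had 92.1, 90.8 and 93.4 CPM in vehicle and 65.2, 68.8, 64.8 and 61.6 CPM in C70 at day 2, and 242, 225, 221 and 242 against 151, 175, 148 and 171 CPM at day 7. The log2 fold changes were -0.50 ± 0.0689 (SE, adjusted p = 3.83e-07) and -0.53 ± 0.0611 (SE, adjusted p = 2.81e-08), without overlap of the samples. Egln3 had 133, 142 and 134 CPM in vehicle and 62.8, 75.5, 70.8 and 65.3 CPM in C70 samples at day 2, a log2 fold change of -0.99 ± 0.0914 (SE, adjusted p = 1.61e-10). By day 7 it had 283, 238, 239 and 262 against 238, 274, 229 and 262 CPM, which overlapped, and a log2 fold change of -0.03 ± 0.0814 (SE, adjusted p = 0.823) that could change sign when 1 sample was left out. Egln2, the form that hypoxia does not induce, was never called, with log2 fold changes from -0.10 to 0.12.

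The HIF targets did not move as one at day 2, when 2 were higher and 6 lower in C70 samples, called or not. By sign alone, 8 were higher and 0 lower at days 0 and 1. At day 7, 1 was higher and 7 were lower. Of all 11959 genes, 5967, 5835, 5912 and 6055 were higher by sign at days 0, 1, 2 and 7. At an adjusted p under 0.05 in edgeR, 4 of the 8 targets were higher at day 0, 4 at day 1 and 0 at day 7. By the same rule 0, 0 and 7 were lower. Bnip3 had 81.6, 88.7 and 72.1 CPM in vehicle and 93.0, 76.9, 79.2 and 83.0 CPM in C70 samples at day 1, and 188, 199.8 and 189 against 95.7, 99.2, 96.6 and 93.9 CPM at day 2. The arms overlapped at day 1 and were 1.996-fold apart at day 2, with log2 fold changes of 0.04 ± 0.0776 (SE, adjusted p = 0.731) and -0.997 ± 0.0750 (SE, adjusted p = 2.1e-12). At day 7 its log2 fold change was -0.25 ± 0.0671 (SE, adjusted p = 0.00293), under the fold threshold. Shared 50-base words make up 47.2% of its exon sequence. Mxi1, a repressor in the MYC network, was called lower at day 2, with 56.4, 57.6 and 55.4 CPM in vehicle and 36.3, 38.3, 35.7 and 36.9 CPM in C70 samples and a log2 fold change of -0.62 ± 0.0497 (SE, adjusted p = 9.43e-12). Vegfa, the vascular growth factor, and Bnip3l, a relative of Bnip3, had log2 fold changes of -0.26 ± 0.0443 (SE, adjusted p = 1.51e-05) and -0.23 ± 0.0465 (SE, adjusted p = 0.000107) at day 2, both lower in every C70 sample but under the fold threshold. Vegfa had the opposite order at day 0, with 95.3, 105 and 94.7 CPM in vehicle and 119, 121, 121 and 114 CPM in C70 samples and a log2 fold change of 0.27 ± 0.0457 (SE, adjusted p = 5.81e-05), also under that threshold. The exons of Bnip3l share 20.8% of their 50-base words with other genes.

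Ndrg1, which is induced by hypoxia and in differentiation, was called on all days but changed direction. At day 1 it had 23.6, 28.2 and 23.8 CPM in vehicle and 47.1, 44.1, 47.1 and 44.8 CPM in C70 samples, and at day 2 it had 12.7, 14.4 and 13.6 against 20.97, 21.4, 21.9 and 22.4 CPM. By day 7 it had climbed to 174, 196, 198 and 205 CPM in vehicle but only to 61.9, 67.0, 52.5 and 78.5 CPM in C70 samples. No samples overlapped on any of the 4 days. The log2 fold changes were 0.41 ± 0.0867 (SE, adjusted p = 0.000867), 0.86 ± 0.0900 (SE, adjusted p = 4.74e-09), 0.67 ± 0.103 (SE, adjusted p = 2.17e-06) and -1.57 ± 0.0743 (SE, adjusted p = 2.38e-16) at days 0, 1, 2 and 7. The last was the largest decrease of any member on any day, 2.97-fold.

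Ankrd37, which encodes a small ankyrin repeat protein, had 2.42, 3.12 and 3.02 CPM in vehicle and 4.92, 4.97, 5.76 and 5.42 CPM in C70 samples at day 0, and 2.83, 3.10 and 2.07 against 4.98, 3.89, 4.86 and 4.72 CPM at day 1. At day 2 the values were 3.64, 4.17 and 4.25 against 2.88, 3.49, 3.53 and 1.90 CPM, and at day 7 they were 13.4, 12.1, 12.005 and 13.3 against 9.22, 10.5, 10.1 and 10.5 CPM. C70 samples were thus higher at days 0 and 1 and lower at days 2 and 7, with log2 fold changes of 0.90 ± 0.148 (SE, adjusted p = 4.32e-05), 0.79 ± 0.155 (SE, adjusted p = 0.000138), -0.46 ± 0.155 (SE, adjusted p = 0.0145) and -0.33 ± 0.107 (SE, adjusted p = 0.0129). The call of day 2 was lost without vehicle day 2 replicate 2 (-0.43), vehicle day 2 replicate 3 (-0.42) or C70 day 2 replicate 4 (-0.29). That of day 7 was lost without vehicle day 7 replicate 1 (-0.30), vehicle day 7 replicate 4 (-0.31) or C70 day 7 replicate 1 (-0.29), and with limma on log2 CPM (-0.33, adjusted p = 0.0663). Of its 50-base words 17.04% occur in other genes. Its exons overlap Lrp2bp and Ufsp2 on the other strand. It is 1 of 15 members with such overlap, which include Aldoa, Tpi1, Gapdh, Pfkp, Hif1a, Bnip3, Ndrg1, Higd1a and Mxi1. The use of strand in counting is not given in the sources used here. Ddit4 was higher at day 0, with 41.0, 49.4 and 41.5 CPM in vehicle and 57.2, 60.2, 56.9 and 57.3 CPM in C70 samples, and at day 2, with 114, 119.6 and 117 against 157, 165, 159 and 154 CPM. Its log2 fold changes were 0.40 ± 0.0582 (SE, adjusted p = 6.32e-06) and 0.44 ± 0.0542 (SE, adjusted p = 4.85e-08). Higd1a, a mitochondrial protein induced by hypoxia, shares 24.4% of its 50-base words and was not called, with 0.22 ± 0.0831 (SE, adjusted p = 0.0322) at day 1 and -0.29 ± 0.0758 (SE, adjusted p = 0.00281) at day 7.

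**Figure D4:**
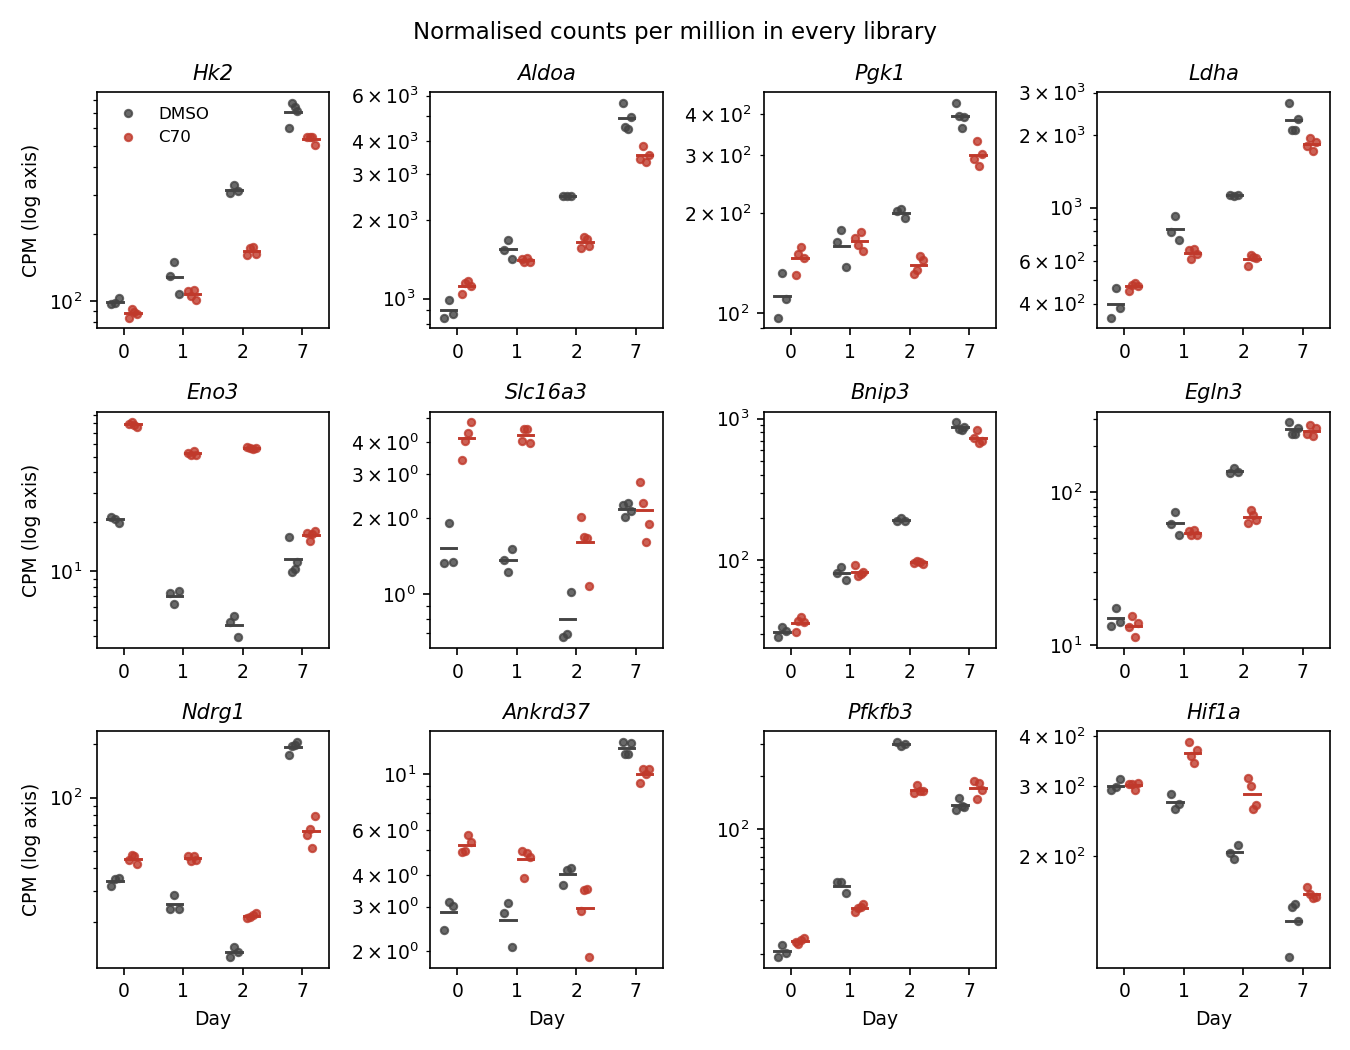
CPM of 12 members in every sample by day, on log axes that differ between panels. Points are samples of vehicle (DMSO) or C70 and lines are group means. In the panel of Ndrg1, C70 samples lie above vehicle samples up to day 2 and below them at day 7 (52.5 to 78.5 against 174 to 205 CPM).

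The change of the C70 effect between days was tested by interaction contrasts, with a call at an adjusted p under 0.05 and a ratio of the fold changes over 1.5. From day 0 to day 2 the effect moved for 17 members against 13.8% of all genes, up for 1 and down for 16 against 8.60% and 5.15%. Eno3 was the member that moved up, by 1.65 ± 0.139 (SE, adjusted p = 9.29e-11) on the log2 scale. The strongest downward moves were those of Ankrd37, Bnip3, Ldha and Pfkfb3, at -1.36 ± 0.215 (SE, adjusted p = 8.22e-06), -1.21 ± 0.114 (SE, adjusted p = 8.64e-10), -1.12 ± 0.117 (SE, adjusted p = 6.56e-09) and -1.05 ± 0.101 (SE, adjusted p = 1.25e-09). From day 2 to day 7 it moved for 7 members against 9.48%, up for 3 and down for 4 against 5.17% and 4.31%. Pfkfb3, Egln3 and Bnip3 moved up, by 1.18 ± 0.0864 (SE, adjusted p = 8.41e-12), 0.97 ± 0.123 (SE, adjusted p = 3.66e-07) and 0.74 ± 0.101 (SE, adjusted p = 1.11e-06), and Eno3, Ndrg1, Slc16a3 and Pfkp moved down, at -3.08, -2.24, -1.05 and -0.80. Thus the deficits of Pfkfb3, Egln3 and Bnip3 at day 2 were smaller or absent at day 7, and the C70 effects on Eno3, Slc16a3 and Ndrg1 were smaller, no longer detected or turned.

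Other genes of these pathways were followed in lists of 45 further genes of glycolysis and glucose metabolism, 33 of them in the table, and 54 further genes of the hypoxia response, 45 of them in the table. As background, 8.97%, 21.4%, 30.5% and 19.1% of all genes were called on the 4 days. In the glycolysis list 2 were called on day 0, both lower, 4 higher and 8 lower on day 1, 4 higher and 18 lower on day 2, and 3 in each direction on day 7, or 6.06%, 36.4%, 66.7% and 18.2%. Its median log2 fold changes were 0.0036, -0.11, -0.39 and -0.055. In the hypoxia list 5 higher and 2 lower were called on day 0, 8 and 3 on day 1, 10 and 9 on day 2, and 5 and 11 on day 7, or 15.6%, 24.4%, 42.2% and 35.6%, with medians of 0.075, 0.052, 0.037 and -0.022. The shares of the glycolysis list at days 0 and 7 and of the hypoxia list at day 1 were near or below those of all genes. The fall at day 2 was thus seen in the median of the glycolysis list and not in that of the hypoxia list.

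The largest rises among these genes at day 0 were those of Loxl2 and Ak4, at 0.69 ± 0.185 (SE, adjusted p = 0.00814) and 0.57 ± 0.118 (SE, adjusted p = 0.000646), and the largest falls those of Angptl4 and Tgfb3, at -0.67 ± 0.0709 (SE, adjusted p = 2.23e-08) and -0.41 ± 0.0541 (SE, adjusted p = 1.66e-06). Loxl2 encodes a lysyl oxidase, Ak4 a mitochondrial adenylate kinase, Angptl4 an inhibitor of lipoprotein lipase and Tgfb3 a growth factor. At day 1 Eno2, the neuronal enolase, rose most, at 1.16 ± 0.101 (SE, adjusted p = 1.27e-10). Gpd1, which makes glycerol phosphate for triglyceride and is a marker of adipocytes, and Taldo1 of the pentose phosphate pathway fell most, at -2.26 ± 0.147 (SE, adjusted p = 1.74e-13) and -0.70 ± 0.0698 (SE, adjusted p = 1.88e-09). At day 2 the largest rises were those of Pdk4, a relative of Pdk1, and Lox, which cross-links collagen, at 1.32 ± 0.0696 (SE, adjusted p = 6.69e-16) and 1.21 ± 0.0607 (SE, adjusted p = 2.45e-16). The largest falls of that day were those of Gpd1 at -2.03 ± 0.0854 (SE, adjusted p = 4.19e-18) and Ak4 at -1.24 ± 0.0869 (SE, adjusted p = 3.93e-13). At day 7 Klf10, a transcription factor induced by TGF-beta, and the glucose transporter Slc2a10 rose most, at 0.91 ± 0.0821 (SE, adjusted p = 2.27e-10) and 0.90 ± 0.110 (SE, adjusted p = 9.01e-08), and Sap30 of the SIN3 corepressor and the heme oxygenase gene Hmox1 fell most, at -0.68 ± 0.223 (SE, adjusted p = 0.0142) and -0.67 ± 0.0534 (SE, adjusted p = 1.8e-11).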

How the data were processed

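RNA of 29 samples of 3T3-L1 cells had been sequenced from strand-specific libraries. The authors aligned reads to GRCm38, with the annotation of Ensembl release 97 and STAR 2.7.2a per the submitters' processing notes, which also list edgeR 3.26.8. They deposited unscaled whole-number counts for 11959 genes, each with a CPM above 1 in at least 20 samples. How reads were counted, and how low genes were removed, is not given in the sources used here. Total counts were 16320275 to 24037170, with scaling factors of 0.898 to 1.08. Replicates differed beyond counting noise (chi-square per degree of freedom 2.65 to 13.9, and 39.8 to 46.7 for pairs with vehicle day 7 replicate 1).

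Symbols were assigned to 11953 genes with GENCODE M21 on GRCm38. In R 4.3.3, edgeR 4.0.16 fitted 1 mean per group to all samples by quasi-likelihood, and p-values were adjusted by Benjamini-Hochberg over all genes. SE is the log2 fold change divided by the root of the F statistic. On simulated data for day 2 among 11959 genes, 89 of 100 genes changed 1.5-fold and 100 of 100 changed 2-fold were recovered, with 1 false call. Only 200 genes were changed there, evenly up and down, and the spread between samples followed the mean level alone. The real data differ in this, so these figures are not error rates of the comparisons above. The alternatives were other scalings, quantile normalization with limma 3.58.1, DESeq2 1.42.0, filters, thresholds, fits per day and leaving out each sample. Figures were drawn with Python 3.11.15 and matplotlib 3.10.9.

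All members are named, and of the other pathway genes the 2 largest rises and 2 largest falls called on each day, of which 1 gene is not reported here. The members and lists were chosen with earlier results of these data known.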

Additional observations from a re-analysis of the deposited data

Results flagged for a closer look

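The C70 effect differed between days, by the interaction test in edgeR, for the following genes (difference of log2 fold changes, adjusted p under 0.05 for each). From day 0 to day 2 the effect fell for the enzymes Hk2 (-0.75), Pfkl (-0.87), Aldoa (-0.90), Tpi1 (-0.69), Gapdh (-0.62), Pgk1 (-0.90), Pgam1 (-0.61) and Ldha (-1.12), and rose for Eno3 (1.65). It also fell for the transporter Slc2a1 (-0.59), the regulators Pfkfb3 (-1.05) and Pdk1 (-0.96), the sensors Egln1 (-0.63) and Egln3 (-0.83), and the HIF targets Bnip3 (-1.21), Ankrd37 (-1.36) and Mxi1 (-0.75). Of these, Pgam1, Egln1 and Gapdh dropped under the ratio of 1.5 without vehicle day 0 replicate 1, at -0.55, -0.55 and -0.56. Pgam1 also did so without C70 day 2 replicate 1 (-0.57) and Gapdh without vehicle day 0 replicate 3 (-0.58). Slc2a1 lay so near the ratio of 1.5 that 7 of the 29 single omissions moved it under, at -0.58 to -0.56. From day 2 to day 7 the effect rose for Pfkfb3 (1.18), Egln3 (0.97) and Bnip3 (0.74) and fell for Eno3 (-3.08), Ndrg1 (-2.24), Slc16a3 (-1.05) and Pfkp (-0.80).

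Each of the 33 members was examined in each group of 4 samples, 165 sets of values in all. In 6 sets 1 sample stood apart from the other 3, where 8.25 would be expected by chance. That number takes the sets as independent, although the genes share samples. Vehicle groups of 3 samples, at days 0, 1 and 2, were not examined. In C70 samples at day 7, Hk2 had 504 CPM in replicate 4 (others 545 to 549) and Egln2 90.5 CPM in replicate 1 (others 84.1 to 84.3). In C70 samples at day 0, Pfkl had 148 CPM in replicate 1 (others 167 to 170), Pgam1 81.6 CPM in replicate 3 (others 77.9 to 78.4) and Ddit4 60.2 CPM in replicate 2 (others 56.9 to 57.3). In vehicle samples at day 7, Higd1a had 125 CPM in replicate 1 (others 92.5 to 98.0).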

How the results depend on the processing

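Of the 49 calls of members after C70, 43 held under every alternative other than the fold thresholds, and 6 were lost under at least one (Pgk1 and Eno1 at day 0, Ldha at days 1 and 7, Ankrd37 at days 2 and 7). On the adjusted p alone, 12 members passed at day 0 (11 higher, 1 lower), 16 at day 1 (10 higher, 6 lower), 29 at day 2 (8 higher, 21 lower) and 27 at day 7 (4 higher, 23 lower), against 19.8%, 40.7%, 50.7% and 41.1% of all genes, and 5 were lower in vehicle at day 1 against day 0 (all genes 35.1%). For the change of the C70 effect, that rule gave 25 members (4 up, 21 down) from day 0 to day 2 and 16 (8 up, 8 down) from day 2 to day 7, against 35.7% and 30.3% of all genes. With a fold over 1.5, the counts after C70 were 3 at day 0 (3 higher), 4 at day 1 (0 lower), 12 at day 2 (3 higher, 9 lower) and 2 at day 7 (0 higher, 2 lower), against 3.28%, 9.12%, 14.5% and 8.80% of all genes. With that fold, in vehicle, they were 15 (13 higher) from day 0 to day 1, 12 (8 higher, 4 lower) from day 1 to day 2, and 25 (23 higher, 2 lower) from day 2 to day 7, against 33.97%, 24.8% and 32.3%. At day 1, 1 member instead of 2 was called lower with the genes of lowest mean level (25%) removed, and likewise with a replicate block. Leaving out single samples gave 1 to 4 lower at day 1, with 1 without vehicle or C70 day 1 replicate 2 and 4 without vehicle day 1 replicate 3, and an enzyme median at day 1 of -0.12 to -0.00089. The sign of 2 values near 0 at day 7 depended on single samples, Slc16a3 from -0.17 to 0.091 and Egln3 from -0.067 to 0.032. Replicate numbers did not pair the samples (correlation of same-numbered samples -0.20 to 0.21). In fits per day with the replicate block, the calls of Ldha at day 1 (-0.32, adjusted p = 0.000149) and Ankrd37 at day 2 (-0.28, adjusted p = 0.167) were not made. The cause of these shifts, beyond the thresholds themselves and fewer samples, was not tested.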
